A study of Danio rerio with 6 samples.

Results

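The zebrafish Hox genes were described in RNA-seq libraries of mettl16-/- and sibling embryos. A gene was taken as a Hox gene when its symbol starts, in either case of letters, with hox, then a, b, c or d, then digits. This rule found 48 of the 26375 gene identifiers counted in each library, in paralog groups 1 to 13 and clusters A to D. The mutants come from a stable mettl16-/- line made with CRISPR/Cas9, in which a small deletion at the target site predicts a shortened protein, and mettl16 encodes an RNA methyltransferase. There were 3 mettl16-/- libraries, labelled as gene knockout, and 3 sibling libraries, labelled mettl16+/+ and without treatment, all at 3 dpf (days after fertilization). The study collected tails that included the caudal hematopoietic tissue (CHT, where embryonic blood stem cells expand), used the heads for genotyping and pooled many tails per library. The deposited labels call the same tissue the trunk region.

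Hox genes encode homeodomain transcription factors that lie in clusters on the chromosome and tell cells their position along the body from hindbrain to tail. Genes at one end of a cluster, with low paralog group numbers, start to be active at an anterior limit in the hindbrain and stay active behind it, while genes with high numbers are active only toward the tail and in the distal fins. The mix of paralog groups in a dissected piece therefore depends on where along the axis the tissue was taken. Zebrafish carry several Hox genes in extra copies from a genome duplication.

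The libraries held between 16239791 and 18020239 counts in mettl16-/- tails and between 16615515 and 18541402 in sibling tails. Hox genes took between 0.0805% and 0.0931% of them in mettl16-/- tails and between 0.0810% and 0.0970% in sibling tails. The fewest counts of any Hox gene in any library were 11 and the most were 1306, so all 48 genes were detected in all 6 libraries and all 48 passed the filter on low counts. The targeted gene, mettl16, had 4.004, 3.28 and 5.15 CPM (counts scaled to library size, here by the TMM method) in mettl16-/- tails and 6.13, 6.17 and 7.01 CPM in sibling tails. The groups did not overlap, with a two-sided exact permutation p of 0.10, the smallest that 3 libraries against 3 allow, while the adjusted p in edgeR was 1.0. In bulk tissue, fewer cells of a type and less RNA per cell cannot be told apart. Nothing states that libraries of a group came from separate clutches, so p-values measure the spread between these libraries only.

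Summed over all 48 genes, Hox transcripts reached 886, 934 and 839 CPM in mettl16-/- replicates 1, 2 and 3, against 869, 924 and 806 CPM in sibling replicates 1, 2 and 3. The means were 886 ± 47.4 CPM in mettl16-/- tails and 866 ± 59.1 CPM in siblings (SD, n = 3 each), a log2 ratio of 0.033. The ranges of the genotypes overlapped almost fully, and in both genotypes replicate 2 was highest and replicate 3 lowest. In pairs of the same replicate number the mettl16-/- library lay above, by 0.028, 0.015 and 0.058 on the log2 scale. The direction depended on the scaling: with total counts alone the log2 ratio of the means was -0.023. Gene lengths were not used here, so levels are compared between libraries and not between genes.

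**Figure D1:**
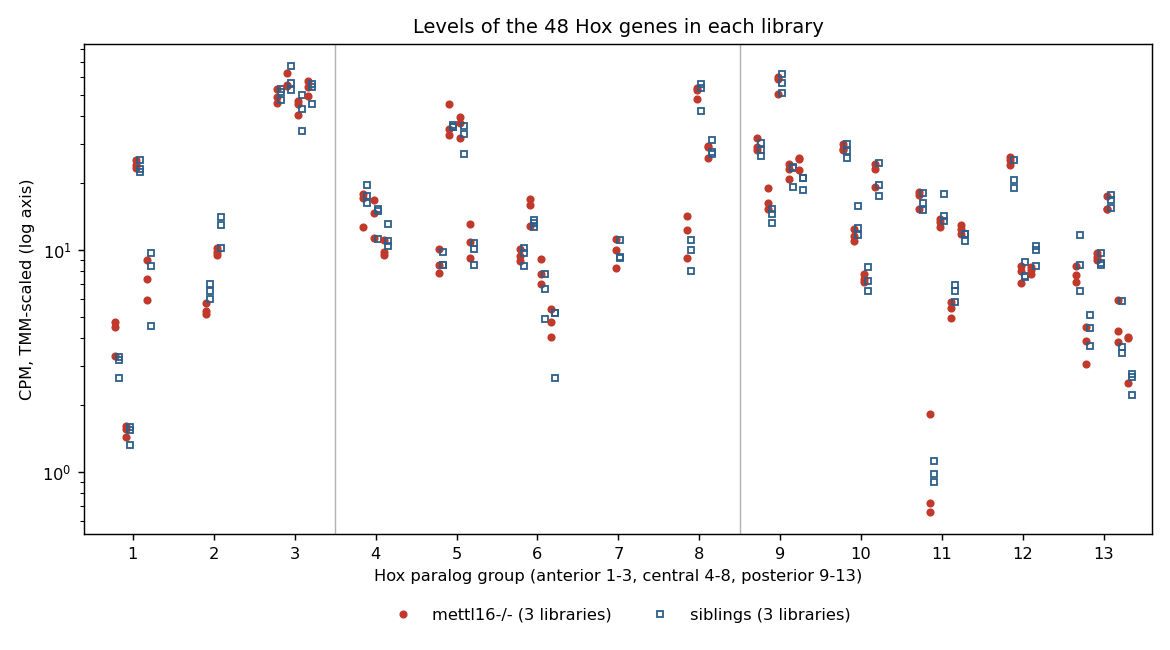
Levels of the 48 Hox genes by paralog group, in CPM on a log axis, with each column pair showing 1 gene as 3 mettl16-/- libraries (filled red circles) and 3 sibling libraries (open blue squares). All 48 genes were above 0 in every library, and in most columns red and blue points interleave.

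The axial level was first read from 3 classes of paralog groups. The 10 anterior genes (groups 1-3) summed to 248, 271 and 253 CPM in mettl16-/- tails and to 253, 280 and 242 CPM in sibling tails. The 15 central genes (groups 4-8) summed to 279, 295 and 244 CPM in mettl16-/- tails and to 263, 282 and 241 CPM in sibling tails. The 23 posterior genes (groups 9-13) summed to 358, 368 and 343 CPM in mettl16-/- tails and to 353, 362 and 323 CPM in sibling tails. The genotypes overlapped in each class, and the log2 ratios of the means, mettl16-/- over siblings, were -0.0055, 0.057 and 0.042 for the anterior, central and posterior class. With total counts alone they were -0.062, 0.0024 and -0.013. In the central and posterior class the mettl16-/- library lay above in each pair of the same number, and in the anterior class the order was mixed. As a share of the Hox sum, the posterior class took 40.5%, 39.4% and 40.8% in mettl16-/- replicates 1, 2 and 3 and 40.7%, 39.2% and 40.0% in sibling replicates 1, 2 and 3. The anterior class took between 28.0% and 30.1% in mettl16-/- tails and between 29.1% and 30.3% in sibling tails. The shares of the genotypes overlapped in each of the 3 classes.

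**Figure D2:**
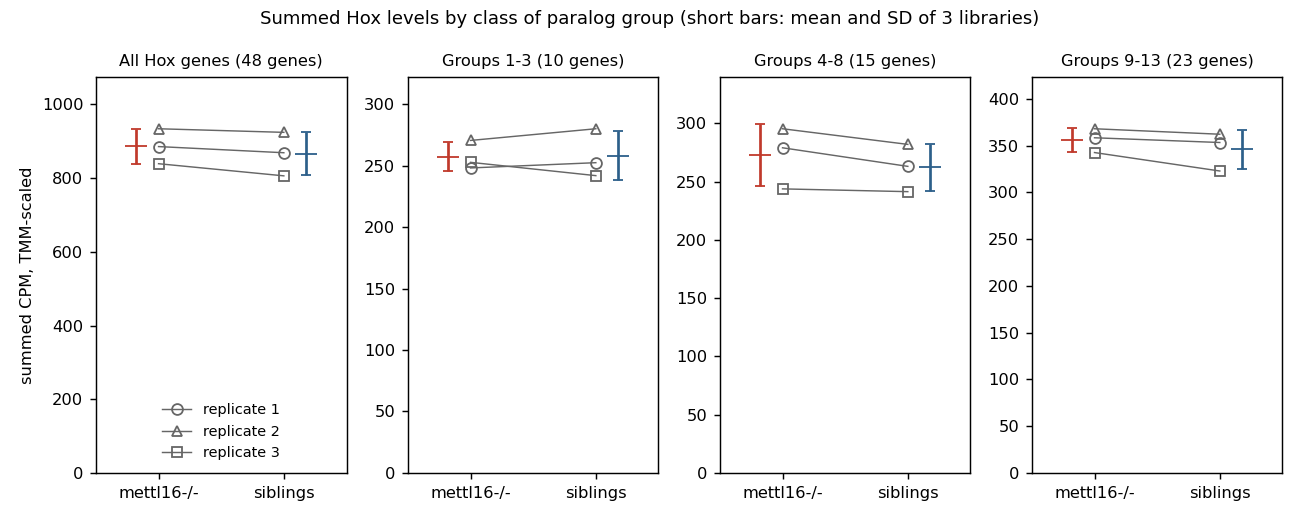
Summed Hox levels in CPM for all genes and for 3 classes of paralog groups, on axes that start at 0. Lines join a mettl16-/- library and a sibling library of the same replicate number, and coloured bars give the mean and SD of 3 libraries. In the panel of all genes, replicate 2 is highest in both genotypes (934 and 924 CPM) and replicate 3 lowest (839 and 806 CPM).

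A single number for the axial level was the mean paralog group of a library, weighted by CPM. This index was 6.82, 6.75 and 6.79 in mettl16-/- replicates 1, 2 and 3 and 6.82, 6.72 and 6.75 in sibling replicates 1, 2 and 3. All 6 libraries lay within 0.104 of a paralog group, and the mean of mettl16-/- tails minus that of siblings was 0.027 with overlapping groups. When each gene was first divided by its own mean over the libraries, so that abundant or long genes had no more weight than others, the index was 7.63, 7.47 and 7.46 in mettl16-/- tails and 7.56, 7.49 and 7.51 in siblings. The difference was then -0.0012, so neither index separated the genotypes, and mettl16-/- replicate 1 had the highest value of both. The levels of the indices depend on the weights, and only the comparison between libraries is read from them.

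The clusters gave the same picture as the classes. Cluster B, the source of 15 of the genes, summed to 360, 386 and 328 CPM in mettl16-/- tails and to 362, 374 and 324 CPM in sibling tails. Cluster D, with 7 genes, summed to 127, 142 and 136 CPM in mettl16-/- tails and to 119, 137 and 128 CPM in sibling tails. The log2 ratios of the 4 clusters lay between 0.019 for B and 0.076 for D, and the genotypes overlapped in each of them. Only in cluster D did the mettl16-/- library lie above in each pair of the same number.

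The replicate number separated the libraries more than the genotype did. Of the sum of squares of the log2 summed Hox level, 93.5% went with the replicate number and 5.07% with the genotype. Over the 48 genes taken one by one, the medians were 58.7% and 9.94%. The replicate number has more levels than the genotype, so on average it takes a larger share even where neither has an effect. The same medians over all genes tested are not given here. Replicate 2 was the highest library of both genotypes for 15 genes and replicate 3 the lowest of both for 18 genes. The coefficient of variation within a genotype had a median of 10.8% over the genes, beside 6.87% from counting error alone, and was above its counting value for 43 of the 48. Marker sums also moved with the replicate number. The list of spinal cord and other neurons summed to 343, 301 and 263 CPM in mettl16-/- tails and 338, 317 and 245 CPM in siblings. The genes ELAVL4 and ELAVL3 made up most of it. ELAVL3 had 91.3, 64.9 and 46.6 CPM in mettl16-/- tails and 80.2, 63.1 and 48.04 CPM in siblings. In both genotypes ELAVL3, ELAVL4 and SLC6A5 fell from replicate 1 to 2 and from 2 to 3. Other genes of the list, GAD2 and MNX1 among them, did not fall in this way in both genotypes. The list of notochord and floor plate summed to 322, 1102 and 1131 CPM in mettl16-/- tails and 449, 1074 and 972 CPM in siblings. Most of this sum was the collagen gene col9a1b (220, 945 and 954 CPM in mettl16-/- tails and 331, 914 and 809 CPM in siblings). Like it, col8a1a and tbxta were lowest in replicate 1 of both genotypes, while FOXA2 and ntd5 were not. What the numbers stand for is not stated, and the part of these tissues in the Hox levels was not tested.

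**Figure D3:**
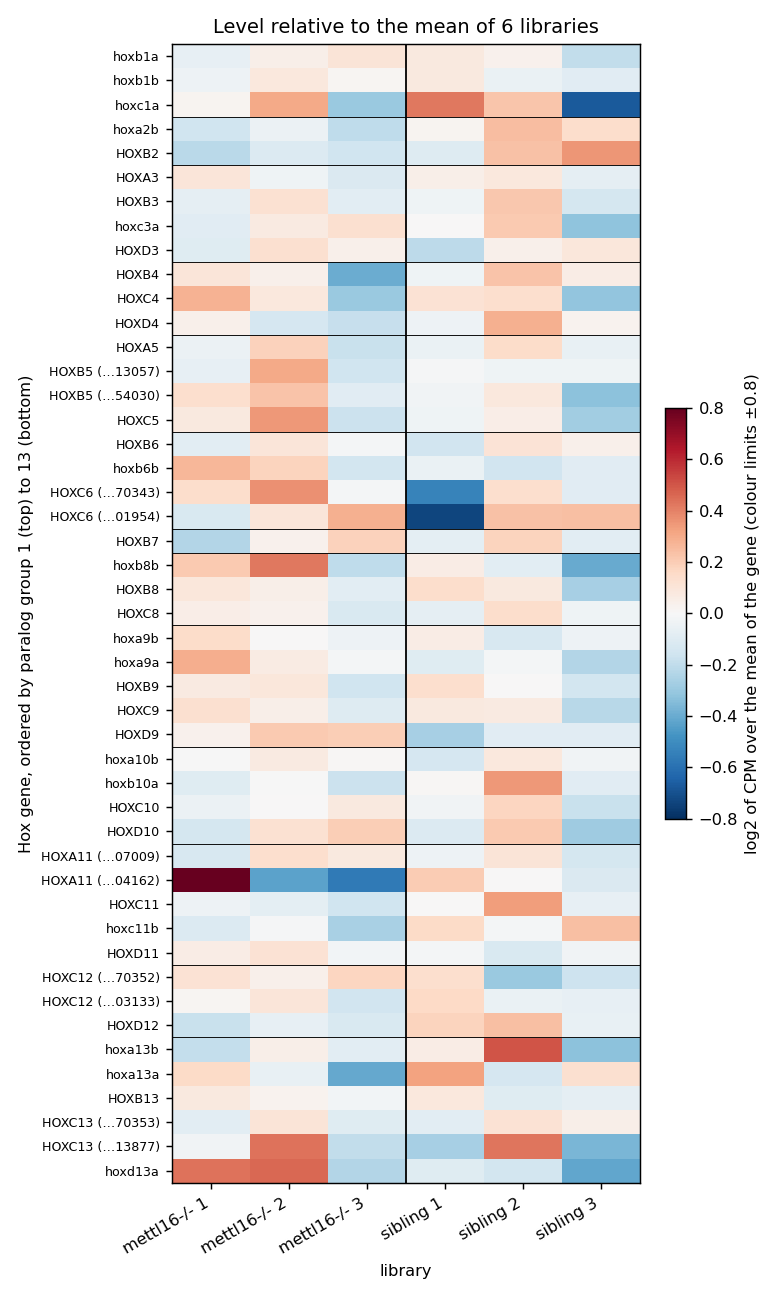
Level of the Hox genes in each library (all but 1 of the 48 are drawn) as the log2 of the CPM over the mean of that gene, with mettl16-/- libraries on the left and sibling libraries on the right. Over all 48 genes, replicate 3 was the lowest library for 31 in mettl16-/- tails and for 28 in sibling tails, and the darkest red cell is the HOXA11 identifier ENSDARG00000104162 in mettl16-/- replicate 1.

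The genotype comparison was then made gene by gene. No Hox gene passed an adjusted p of 0.05 in the quasi-likelihood test of edgeR, with p-values adjusted by Benjamini-Hochberg over the 18487 genes tested, where 0.124% of all genes passed. The smallest adjusted p of a Hox gene was 1.0. In the same edgeR fit 1 Hox gene, HOXD9, had an unadjusted p below 0.05 (2.08% of the members), beside 2.17% of all genes tested. That gene was higher in mettl16-/- tails, as were 1.17% of all genes at this threshold, and 0 Hox genes were lower, beside 1.01%. DESeq2 also gave 0 Hox genes by adjusted p and 1 by unadjusted p. The log2 fold changes, mettl16-/- over siblings, ran between -0.33 and 0.46, with a median of 0.045 beside -0.0032 for all genes tested. For 33 of the 48 genes (68.8%) the 95% interval lay within 0.585 of 0, the size of change on the log2 scale that the study used as its limit, beside 54.5% of all genes. The half-widths of the intervals had a median of 0.34 and reached 1.04 for the copy of HOXA11 with the fewest counts.

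The number of genes above and below 0 depended on the scaling. With TMM 29 genes had a positive fold change and 19 a negative one, against 19 positive and 29 negative when only the total counts were used, a scaling that moved the median of all genes to -0.058. Without overlap between genotypes, 3 genes were higher and 3 lower in mettl16-/- tails, together 12.5% of the members beside 6.89% of all genes tested (3.46% higher and 3.43% lower). By the total counts it was 1 higher, HOXD9, and 5 lower. Only HOXD9 (higher), hoxa2b and HOXB2 (both lower) did not overlap under TMM, DESeq2 size factors and total counts alike.

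**Figure D4:**
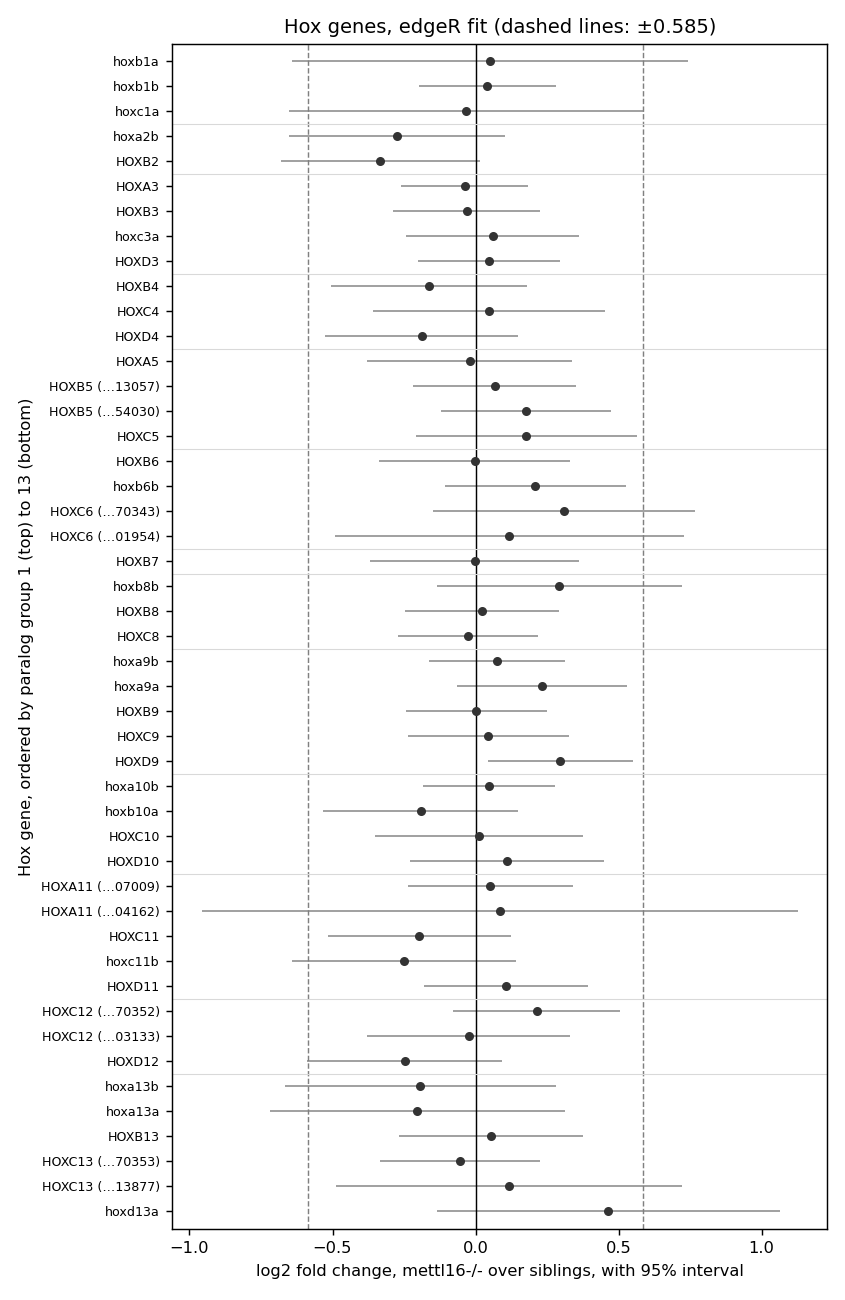
Log2 fold change of the same Hox genes, mettl16-/- over siblings, each with its 95% interval from edgeR, ordered by paralog group. The points run between -0.33 (HOXB2) and 0.46 (hoxd13a), the dashed lines mark 0.585 on either side of 0, and of the intervals drawn only that of HOXD9 leaves out 0.

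Among the anterior genes, group 1 patterns the hindbrain. The most abundant of its 4 members by CPM was hoxb1b, an early hindbrain regulator, with 23.3, 25.3 and 24.2 CPM in mettl16-/- tails and 25.3, 23.0 and 22.5 CPM in sibling tails, fully overlapping. Another member, hoxb1a, known from a single hindbrain segment, stayed at 1.32 to 1.62 CPM over all libraries.

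In group 2 the sums did not overlap between genotypes, as in 1 of the 13 groups and in 6.89% of all single genes tested. It holds hoxa2b and HOXB2, which act in the hindbrain and in the neural crest of the pharyngeal arches. The sums were 14.8, 15.9 and 15.0 CPM in mettl16-/- tails and 16.2, 19.9 and 20.5 CPM in sibling tails, a log2 ratio of -0.31. The ratio was -0.31 with DESeq2 size factors and -0.37 with total counts. HOXB2 (ENSDARG00000000175) had 9.45, 10.2 and 9.82 CPM in mettl16-/- tails and 10.2, 12.9 and 14.0 CPM in sibling tails, and hoxa2b (ENSDARG00000023031) had 5.32, 5.73 and 5.15 CPM in mettl16-/- tails and 6.01, 7.04 and 6.53 CPM in sibling tails. For both genes every mettl16-/- library lay below every sibling library, though for HOXB2 mettl16-/- replicate 2 and sibling replicate 1 nearly met. Neither passed, with log2 fold changes of -0.33 (standard error 0.156, unadjusted p = 0.0586) for HOXB2 and -0.27 (standard error 0.170, unadjusted p = 0.138) for hoxa2b in edgeR. Markers of tissue anterior to the Hox domain overlapped between the genotypes. The list of forebrain, midbrain and eye markers, with 16 of 28 symbols matched, summed to 22.1, 19.5 and 42.2 CPM in mettl16-/- tails and to 24.6, 22.8 and 25.8 CPM in siblings. Only mettl16-/- replicate 3 stood above the others. Of 8 hindbrain symbols 3 were matched, GBX2, PHOX2A and PTF1A, and GBX2 and PHOX2A made up most of their sum. Symbols such as egr2b and mafba were not matched. The sums were 28.3, 34.3 and 31.3 CPM in mettl16-/- tails and 34.7, 28.6 and 30.2 CPM in siblings, which overlapped. The part of such tissue in the group 2 values was not tested.

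Group 3 genes act in the caudal hindbrain and the arches. HOXB3 (ENSDARG00000029263) reached 55.1, 62.9 and 54.6 CPM in mettl16-/- tails and 56.5, 67.1 and 52.7 CPM in sibling tails. Both genotypes peaked in replicate 2, and the fold change of -0.03 (95% interval -0.29 to 0.23) was small beside the spread. The log2 fold changes of the 4 members lay between -0.04 and 0.06.

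The central genes pattern the trunk. HOXB4 (ENSDARG00000013533), whose mouse and human counterparts are known for expanding blood stem cells in culture, had 17.8, 17.1 and 12.7 CPM in mettl16-/- tails and 16.3, 19.6 and 17.4 CPM in sibling tails. The groups overlapped, and only mettl16-/- replicate 3 stood low, with a log2 fold change of -0.16 (95% interval -0.51 to 0.18). In group 5, which helps to set the neck and upper trunk in mouse, the HOXB5 identifier ENSDARG00000013057 had 35.0, 45.3 and 32.8 CPM in mettl16-/- tails and 36.4, 35.8 and 35.9 CPM in sibling tails. Here the sibling libraries were nearly equal and the mettl16-/- libraries lay on both sides of them. The other identifier named HOXB5, ENSDARG00000054030, had 37.3, 39.9 and 31.9 CPM in mettl16-/- tails and 33.4, 36.0 and 27.1 CPM in sibling tails. It overlapped between the genotypes but lay above in each pair of the same number, by 0.16, 0.15 and 0.24 on the log2 scale.

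Groups 6 to 8 act in the thoracic part of the axis in mouse. In group 6, hoxb6b had 17.0, 16.0 and 12.8 CPM in mettl16-/- tails and 13.6, 12.7 and 13.2 CPM in sibling tails. Only mettl16-/- replicate 3 fell within the sibling range. The HOXC6 identifier ENSDARG00000070343 had 7.82, 9.13 and 7.01 CPM in mettl16-/- tails and 4.89, 7.76 and 6.65 CPM in sibling tails, with a low sibling replicate 1. The group 6 sum overlapped, at 37.7, 39.9 and 34.5 CPM in mettl16-/- tails and 29.6, 35.8 and 34.8 CPM in sibling tails. HOXB7, the one member of group 7, had 8.32, 10.02 and 11.1 CPM in mettl16-/- tails and 9.25, 11.1 and 9.22 CPM in sibling tails, a log2 fold change of -0.0032 with mixed order. Of group 8, HOXB8 had 53.9, 52.3 and 47.7 CPM in mettl16-/- tails and 55.9, 53.5 and 42.2 CPM in sibling tails, while hoxb8b had 12.3, 14.2 and 9.22 CPM in mettl16-/- tails and 11.1, 10.03 and 8.03 CPM in sibling tails. Both were lowest in replicate 3 of each genotype, and for both the genotypes overlapped.

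Group 9 opens the posterior class, and its 5 members all had a positive fold change, between 0.0031 for HOXB9 and 0.30 for HOXD9, beside 49.1% of all genes above 0. Its sum was 157, 154 and 140 CPM in mettl16-/- tails and 149, 143 and 132 CPM in sibling tails. The genotypes overlapped, though each mettl16-/- library lay above the sibling library of the same number. The log2 ratio of 0.093 became 0.039 with total counts. HOXD9 (ENSDARG00000059274), which in mouse acts in limb and lower trunk, had 22.9, 25.9 and 25.6 CPM in mettl16-/- tails and 18.6, 21.0 and 21.0 CPM in sibling tails. Every mettl16-/- library lay above every sibling library, and the log2 ratio in the 3 pairs of the same number was 0.30, 0.30 and 0.29. The log2 fold change was 0.30 (95% interval 0.04 to 0.55, standard error 0.114), with an unadjusted p of 0.0263 and an adjusted p of 1.0 in edgeR. Its unadjusted call was lost without mettl16-/- replicate 2, when 0 Hox genes had an unadjusted p below 0.05 in edgeR. The copy hoxa9a (ENSDARG00000105013) had 19.0, 16.2 and 15.3 CPM in mettl16-/- tails and 14.4, 15.3 and 13.2 CPM in sibling tails. These groups met without overlap at 15.3 CPM, with a log2 fold change of 0.23 (95% interval -0.07 to 0.53), and they overlapped with DESeq2 size factors or total counts. HOXB9 had 59.0, 59.9 and 50.4 CPM in mettl16-/- tails and 61.8, 56.4 and 50.8 CPM in sibling tails, with no order between the genotypes.

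Groups 10 and 11 pattern the lumbar and sacral levels in mouse, and group 11 also the kidney there. In zebrafish tails hoxa10b had 28.3, 29.8 and 28.6 CPM in mettl16-/- embryos and 25.9, 30.1 and 27.9 CPM in siblings. The HOXA11 identifier ENSDARG00000007009 had 15.3, 18.3 and 17.6 CPM in mettl16-/- tails and 16.3, 17.9 and 15.2 CPM in sibling tails. Both genes overlapped between genotypes, with log2 fold changes of 0.05 each. The other HOXA11 identifier, ENSDARG00000104162, had the widest spread of all Hox genes, 2.75 times between its highest and lowest library, and is named here after its values were seen. It had only 29, 13 and 11 counts in mettl16-/- tails and 19, 19 and 15 counts in sibling tails, and mettl16-/- replicate 1 alone stood apart.

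Groups 12 and 13 mark the end of the axis, and group 13 genes also act in the distal fins. The HOXC12 identifier ENSDARG00000070352 had 25.3, 24.0 and 26.2 CPM in mettl16-/- tails and 25.5, 18.9 and 20.7 CPM in sibling tails. Sibling replicate 1 lay among the mettl16-/- libraries and the other siblings below them. HOXD12 (ENSDARG00000059263) had 7.76, 8.41 and 8.08 CPM in mettl16-/- tails and 9.96, 10.4 and 8.45 CPM in sibling tails. Its groups nearly met at sibling replicate 3 and did not overlap, with a log2 fold change of -0.25 (95% interval -0.59 to 0.09), but they overlapped with DESeq2 size factors. In group 13 the HOXC13 identifier ENSDARG00000070353 had 15.3, 17.5 and 15.2 CPM in mettl16-/- tails and 15.4, 17.6 and 16.8 CPM in sibling tails, which overlapped. The gene hoxd13a (ENSDARG00000059256), needed for fin rays together with other group 13 genes, had the highest fold change of all Hox genes and is named after its values were seen. It had 4.004, 4.06 and 2.52 CPM in mettl16-/- tails and 2.77, 2.67 and 2.22 CPM in sibling tails, overlapping at replicate 3 of the mutants, with a log2 fold change of 0.46 (95% interval -0.14 to 1.07). The group 13 sum was 45.0, 49.2 and 41.3 CPM in mettl16-/- tails and 45.1, 50.1 and 42.1 CPM in sibling tails, with log2 ratios of -0.0032, -0.027 and -0.027 in the pairs of replicates 1, 2 and 3.

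The 27 members outside the rule for named genes had mean levels between 1.03 and 52.7 CPM, log2 fold changes between -0.25 and 0.46, and no unadjusted p below 0.116 in edgeR. Several symbols are shared. The table of gene names gives 5 symbols to 2 identifiers each, 10 members in all, and how the counting treated reads that fit both copies is not stated, so the split between copies is uncertain.

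Within pairs of the same replicate number, 11 Hox genes (22.9%) were above their sibling library in all 3 pairs, beside 15% of all genes tested, and 6 (12.5%) were below in all 3, beside 14.9%. The replicate number was also entered as a block. No Hox gene passed the adjusted p then either, and the smallest adjusted p in edgeR was 0.123, for HOXD9. The block raised the genes with an unadjusted p below 0.05 in edgeR to 8, 16.7% of the members beside 9.2% of all genes (4.85% higher and 4.34% lower). Of these 7 had positive fold changes (among them HOXB5 ENSDARG00000054030, HOXC6 ENSDARG00000070343, hoxb8b, hoxa9a, HOXD9 and HOXC12 ENSDARG00000070352) and 1 a negative one (HOXB2). The unadjusted p with the block was 0.00213 for HOXD9 and 0.0129 for HOXB2 in edgeR, and it lay between 0.0224 and 0.0469 for the other 6.

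Genes that work with or upstream of the Hox genes were counted in the same fit. ALDH1A2, EVX2 and EZH2 are named from them as examples chosen after their values were seen. Groups without overlap or an unadjusted p below 0.05 with the block also led to PKNOX2, rarab and kmt2bb being named. The TALE homeodomain cofactors are Pbx, Meis and Pknox proteins that bind DNA together with Hox proteins, and 9 of 14 symbols were matched. Of their 9 identifiers 8 were tested and 0 passed the adjusted p in edgeR (0 also by unadjusted p and 0 with the block). Their sums were 356, 361 and 345 CPM in mettl16-/- tails and 350, 371 and 349 CPM in sibling tails, which overlapped. PKNOX2 did not overlap, with 20.5, 20.4 and 19.9 CPM in mettl16-/- tails and 19.7, 19.2 and 17.2 CPM in sibling tails. The list of inducers of Hox genes and of posterior fate holds the Cdx factors and both synthesis and breakdown genes of retinoic acid. It matched 17 of 28 symbols. Of its 18 identifiers 14 were tested and 0 passed by adjusted or unadjusted p in edgeR without the block. Its sums were 243, 261 and 259 CPM in mettl16-/- tails and 240, 281.5 and 271 CPM in sibling tails, which overlapped. Fold changes were above 0 for 3 and below for 11, while 49.1% of all genes tested were above 0. The 11 include the breakdown genes CYP26A1, CYP26B1 and CYP26C1, so these counts give no direction of induction. The retinoic acid receptor gene rarab had 31.4, 31.6 and 27.7 CPM in mettl16-/- tails and 33.0, 37.3 and 32.5 CPM in sibling tails, without overlap. Its unadjusted p in edgeR was 0.124 without and 0.0249 with the block (adjusted p 0.441 with the block). The retinoic acid synthesis gene ALDH1A2 had 83.8, 83.7 and 84.0 CPM in mettl16-/- tails and 77.0, 84.2 and 93.5 CPM in sibling tails, with the mettl16-/- libraries inside the sibling range. Of genes next to the clusters, 12 of 20 symbols were matched. For these, 12 of 14 identifiers were tested and 0 passed by adjusted or unadjusted p in edgeR. EVX2, a homeobox gene beside the posterior end of cluster D, had 7.76, 8.74 and 8.92 CPM in mettl16-/- tails and 9.43, 8.33 and 6.95 CPM in sibling tails, with no order between the genotypes.

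The chromatin regulators held the one gene of these 4 lists that passed an adjusted p in edgeR, with the replicate block. These regulators are Polycomb genes, which keep Hox genes silent, and Trithorax-type genes, which keep them active. Only 15 of 23 symbols were matched, and Polycomb genes such as suz12a and bmi1a were not found by symbol. All 15 matched identifiers were tested, with 0 passing the adjusted p in edgeR without the block. The histone methyltransferase gene kmt2ba (ENSDARG00000062962), of the Trithorax type, had 35.2, 37.6 and 40.5 CPM in mettl16-/- tails and 29.5, 30.2 and 31.5 CPM in sibling tails. The genotypes were well apart, with a log2 fold change of 0.31 and an unadjusted p of 0.0107 in edgeR. With the replicate block its adjusted p in edgeR was 0.0288, the only adjusted call in these 4 lists in that fit, in which 1.04% of all genes tested passed. Its relative kmt2bb overlapped between the genotypes. With the block kmt2bb had an unadjusted p of 0.0346 in edgeR, where 9.2% of all genes tested were below 0.05, and an adjusted p of 0.484. The Polycomb methyltransferase gene EZH2 (ENSDARG00000010571) had 20.5, 21.9 and 22.9 CPM in mettl16-/- tails and 23.8, 25.1 and 19.4 CPM in sibling tails, which overlapped.

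The tissue makeup was read from marker sums, whose genotypes overlapped in each of the 9 lists. Symbols matched were 10 of 20 for muscle and somite, 11 of 14 for fin and 14 of 17 for liver, gut and pancreas. They were 7 of 9 for pronephros, 11 of 16 for blood, 11 of 21 for neurons and 6 of 10 for notochord. Skeletal muscle and somite markers summed to 103120, 90538 and 104010 CPM in mettl16-/- replicates 1, 2 and 3 and to 101150, 77052 and 90839 CPM in sibling replicates 1, 2 and 3. Fin fold and fin bud markers summed to 3167, 3357 and 3366 CPM in mettl16-/- tails and to 3138, 3205 and 3001 CPM in siblings. Both sums were above their sibling library in each of the 3 pairs of the same replicate number. Most of the muscle and somite sum was the gene actc1b, with 65760, 56442 and 67414 CPM in mettl16-/- tails and 64053, 46596 and 57468 CPM in siblings. Liver, gut and pancreas markers summed to 1964, 2242 and 2334 CPM in mettl16-/- tails and to 2061, 2641 and 2921 CPM in siblings, below the sibling library in each of the 3 pairs. Markers of pronephros and cloaca ranged between 427 and 513 CPM in mettl16-/- tails and between 425 and 564 CPM in siblings. Markers of blood and vessel of the CHT ranged between 1901 and 2678 CPM in mettl16-/- tails and between 1797 and 2388 CPM in siblings, and most of this sum was the globin gene hbae3. In the lists other than muscle, fin, and liver, gut and pancreas, the order of the genotypes differed between pairs. The part of these tissues in the Hox levels was not tested.

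Among single markers, the digestive organs held most calls. Of the 14 liver, gut and pancreas genes tested, 12 had a fold change below 0, while 49.1% of all genes tested were above 0. Other lists were as uneven in the other direction. Fold changes above 0 were 10 of 11 for muscle and somite, 9 of 10 for fin and 8 of 10 for forebrain, midbrain and eye. The pancreatic elastase gene cela1.4 was the only marker in the 9 lists to pass the adjusted p in edgeR without the block (lower in mettl16-/- tails, adjusted p = 0.0349). In the edgeR fit with the replicate block, 1.04% of all genes tested passed. Of the liver, gut and pancreas list 4 genes passed there, all lower in mettl16-/- tails: cela1.4 (adjusted p = 1.03e-05), FABP6 (0.0134), tfa (0.0217) and fabp10a (0.0337). The muscle actin gene actc1b also passed in that fit, higher in mettl16-/- tails (adjusted p = 0.0423 in edgeR). For actc1b and tfa the genotypes overlapped, and without the block their unadjusted p in edgeR was 0.197 and 0.177. The trypsin gene prss1 had an unadjusted p of 0.0378 in edgeR without the block, with 10.6, 12.6 and 17.7 CPM in mettl16-/- tails and 22.2, 21.1 and 67.7 CPM in sibling tails. In the list of blood and vessel, MYB (ENSDARG00000053666), a transcription factor gene of blood stem cells, had 14.9, 13.5 and 13.1 CPM in mettl16-/- tails and 16.7, 15.5 and 18.6 CPM in sibling tails. Its groups did not overlap, with a log2 fold change of -0.29 and an unadjusted p of 0.0483 in edgeR (0.0115 with the block), and its adjusted p was 1.0 without and 0.317 with the block in edgeR. Over all genes tested, 6.89% had groups without overlap and 2.17% an unadjusted p below 0.05 in edgeR without the block. The list as a whole did not go the way of MYB. Of its 10 genes tested, 7 had a fold change above 0 and 3 below, with a median log2 fold change of 0.061.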

How the data were processed

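RNA-seq libraries of pooled mettl16-/- and sibling tails at 3 dpf were analysed. According to the methods and the submitters' processing notes, the authors filtered reads with fastp 0.18.0, discarded ribosomal RNA reads found with Bowtie2, mapped the rest to GRCz11 with HISAT2 and used StringTie 1.3.1 (base calling by CASAVA 1.8). The authors deposited whole-number counts per gene, not normalized. The counting tool, its use of strand and its handling of reads shared by copies are not given in the sources used here.

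Hox genes were matched by the symbols of a table of gene names that writes many of them in the human style. From the counts, CPM were computed with TMM factors in edgeR 4.0.16 (R 4.3.3), and mettl16-/- was compared with siblings by the quasi-likelihood test (filterByExpr by group, robust fit, Benjamini-Hochberg adjustment over 18487 genes, threshold 0.05). Total counts per library were 16239791 to 18541402. The script was tested on simulated data. Sums over genes and axial indices have no test.

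The alternatives were DESeq2 1.42.0, DESeq2 size factors, total counts alone for the sums, no filter, a mean of at least 50 counts, a non-robust fit, the replicate block and each library left out. Between libraries of the same replicate number, deviations from the group means correlated at 0.625, 0.345 and 0.553 over all genes tested. On these values the numbers were taken to pair the libraries in the replicate block, while the main fit left the pairing out. Between different numbers the correlations were -0.481 to -0.0279. Deviations within a group sum to 0, so positive values for the same number bring negative ones between numbers, which are not separate support. Deposited counts of any 2 libraries differed by more than counting noise (chi-square per degree of freedom of 4.71 or more).

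An axial index per kilobase of coding sequence had been planned. Coding lengths were not used here, so CPM served as weights, and an index with each gene scaled to its own mean was added after the data were seen. Values in every library are given for the gene with the highest CPM in each paralog group and for each gene with an unadjusted p below 0.05 with or without the block, or with groups that do not overlap. Of the members 1 is counted in the totals but not reported by name here. The members and all gene lists (cofactors, inducers, chromatin regulators, cluster neighbours and 9 marker lists) were chosen with earlier results of these data known.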

Additional observations from a re-analysis of the deposited data

How the results depend on the processing

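No Hox gene passed the adjusted p under any of the 12 alternatives to the edgeR fit, and 14 of the 21 genes named by the rule kept the sign of their fold change in all of them. The smallest adjusted p of these genes over the alternatives was 0.123, with the replicate block. The count of all genes that passed was 23 and became 60 in DESeq2, 193 with the replicate block and 3 to 21 with a library left out. The count of Hox genes with an unadjusted p below 0.05 was 1 and became 8 with the replicate block and 0 to 2 with a library left out, and it was 0 only without mettl16-/- replicate 2. With the block, 1 chromatin regulator passed the adjusted p in edgeR, where 0 did without it, and the block changed no other adjusted call of the Hox genes or of the 4 lists. Fold changes near 0 changed sign. With a library left out, the log2 fold change ran between -0.10 and 0.079 for HOXB3, -0.087 and 0.16 for HOXB5 ENSDARG00000013057, -0.10 and 0.10 for HOXB7, -0.091 and 0.10 for HOXB8, -0.064 and 0.078 for HOXB9, -0.0045 and 0.11 for hoxa10b, and -0.0026 and 0.13 for HOXA11 ENSDARG00000007009. That of HOXB7 was 0.00024 with no filter and that of HOXB9 was -0.0013 at a mean of at least 50 counts. The median of the Hox genes ran between -0.034 and 0.074 and that of mettl16 between -0.82 and -0.49 with a library left out. The cause of these shifts was not tested. With 3 libraries a genotype, both counting error and the spread between libraries limit what can be seen in single Hox genes. Counting error was 3.15% to 23.8% per library (median 6.87%), and the spread within a genotype had a larger median of 10.8%. The planned weighting by coding length was not run.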
